A study of Mus musculus with 6 samples.

Results

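The 10 elastic fibre and microfibril genes described here were elastin (*Eln*), fibrillin-1 (*Fbn1*), the fibulins *Fbln1*, *Fbln2* and *Fbln5*, the microfibril-associated *Mfap2*, *Mfap4* and *Mfap5*, and the lysyl oxidases *Lox* and *Loxl1*. They were taken by symbol from tables of 23352 genes, and every one was present in a single row. The tables came from RNA-seq of 6 stromal populations (P1 to P6) of the omentum, a fat-rich fold of the peritoneum, sorted from WT C57BL/6 mice, with 1 library for each. P1, P2 and P3 were CD45-CD140a+CD105+ cells with high, intermediate and low activity of aldehyde dehydrogenase (ALDH), respectively. P4 (intermediate ALDH) and P5 (low ALDH) came from the CD45-CD140a+CD105- gate, and P6 was CD45-, low for CD140a and positive for ALDH activity. All 6 populations thus shared genotype and strain and received no treatment that the labels name, and how many mice were pooled for a library, and their age, are not given in the sources used here.

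Elastic fibres consist of a core of cross-linked elastin laid on a scaffold of microfibrils, whose main component is fibrillin-1. Fibulins bridge elastin, microfibrils and cells, microfibril-associated proteins bind to the fibrillin scaffold, and lysyl oxidases oxidise lysines of tropoelastin and collagen so that the chains can cross-link. In connective tissue these proteins are made mostly by fibroblasts and smooth muscle cells, and mesothelial cells also make some of them.

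Levels are given as FPKM, fragments mapped to a gene scaled to the length of its transcript and to the depth of the library, so that it can be set side by side between genes. With 1 library for each population there was no replicate error, and no test was made. A ratio between populations is given with a 95% exact interval computed from estimated reads, which covers counting error only. A gene was counted as different between populations when its ratio was at least 2 in either direction and the higher value was at least 1 FPKM. Depth estimated from the steps of low values was 53.39 to 61.73 M reads in P1 to P5 but 36.96 M reads in P6. The genes of the surface gates followed the sort, with *Eng* (CD105) at 42.6 to 52.4 FPKM in P1 to P3 and 0.231 to 0.728 FPKM in P4 to P6. *Pdgfra* (CD140a) was at 117 to 154 FPKM in P1 to P5 and 5.36 FPKM in P6, and *Ptprc* (CD45) was at most 0.755 FPKM. *Aldh1a2*, which codes for a retinaldehyde dehydrogenase and so bears on the ALDH gate, did not follow ALDH activity in CD105+ cells. It was at 469 FPKM in P1 but at 78.8 in P2, below the 134 of P3 (ratio of P2 over P3 0.589), while in CD105- cells it was at 285 in P4 and 145 in P5. The fibroblast gene *Dcn* (decorin) lay at 4350 to 5871 FPKM, and none of the 5 fibroblast markers examined was at 0 in any library. Since these are bulk values, fewer cells of a type and less RNA per cell cannot be told apart.

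Promoter sequence was found for 5 of the 10 genes among 32851 promoters of RefSeq (GRCm38.p6). Those of 3 are shown for their unlike patterns: *Fbn1* and *Fbln5* were 8.57 and 9.66 times higher in P1 than in P6, whereas *Fbln1* was highest in P6. Each is the 250 bases before the outermost annotated start, 5′ to 3′ on the strand of the gene, with the GC box GGGCGG, or its reverse complement CCGCCC, in capitals. The *Fbn1* window is chr2:125506439-125506688 on the minus strand, that of *Fbln5* is chr12:101819120-101819369 on the minus strand, and that of *Fbln1* is chr15:85205699-85205948 on the plus strand.
Fbn1: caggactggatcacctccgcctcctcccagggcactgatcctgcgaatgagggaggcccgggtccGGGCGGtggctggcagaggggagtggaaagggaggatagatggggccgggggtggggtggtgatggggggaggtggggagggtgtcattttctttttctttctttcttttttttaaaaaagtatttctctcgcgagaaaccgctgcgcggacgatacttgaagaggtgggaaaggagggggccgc
Fbln5: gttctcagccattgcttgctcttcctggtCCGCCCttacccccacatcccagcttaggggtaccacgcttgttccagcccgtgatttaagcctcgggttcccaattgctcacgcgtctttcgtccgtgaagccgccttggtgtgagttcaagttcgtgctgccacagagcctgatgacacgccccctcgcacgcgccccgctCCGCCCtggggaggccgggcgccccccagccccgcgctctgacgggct
Fbln1: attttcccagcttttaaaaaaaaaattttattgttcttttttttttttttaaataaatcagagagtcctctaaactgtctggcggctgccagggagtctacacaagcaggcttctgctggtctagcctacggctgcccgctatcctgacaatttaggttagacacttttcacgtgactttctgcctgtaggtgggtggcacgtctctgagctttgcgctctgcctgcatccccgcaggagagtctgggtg
*Fbn1* carried 1 GC box at -185 from the start and *Fbln5* carried 2, at -221 and -48, while 32.7% of all promoters held at least 1. The other motifs were also searched on both strands. The TATA box, spelled TATAAA, was in none of the 3 windows and in 12.4% of all promoters, and the TEAD motif, spelled GGAATG, was in none of the 3 and in 12.6%. The nuclear receptor motif, spelled AGGTCA, was likewise in none of the 3 and in 14% of all promoters, and the AP-1 motif, spelled TGANTCA, in none and in 6.75%. The CCAAT box was found once, in *Fbln5* at -150, and in 33.8% of all promoters. The *Fbln1* window held none of these motifs, and its GC content was 46.4%, against 59.2% in *Fbn1*, 65.2% in *Fbln5* and a median of 52.4% over all promoters. Of the other promoters found, that of *Fbln2* held a GC box at -16 and none of the other motifs. That of *Mfap2*, a gene with the order of *Fbln5*, held no GC box but a CCAAT box at -105, the TEAD motif at -176 and the nuclear receptor motif at -150. The matches in the printed windows did not overlap each other, and a match describes letters in the window only.

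Elastin, the elastic core, was at 213 FPKM in P1, 184 and 128 FPKM in P2 and P3, 99.0 and 53.4 FPKM in P4 and P5, and 45.5 FPKM in P6. *Eln* thus went down stepwise from P1 to P6, from the 311th to the 1502nd most abundant gene of its library, and its highest value was 4.69 times its lowest. The smallest of the 5 steps was from P1 to P2, with a ratio of 1.16 (1.15 to 1.18), and the largest was from P4 to P5, with a ratio of 1.86 (1.81 to 1.90).

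Fibrillin-1, the main protein of the microfibril, was the most abundant of the 10 transcripts in P1. *Fbn1* was at 514 FPKM in P1, 381 and 228 FPKM in P2 and P3, 287 and 97.0 FPKM in P4 and P5, and 60.0 FPKM in P6. Unlike *Eln*, it was higher in P4 than in P3, so that the 3 populations with high or intermediate ALDH activity in the CD140a+ gate came before the 2 with low activity. It ranked 135th among all genes in P1 and 1090th in P6.

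The 3 fibulins differed from each other. *Fbln5*, which binds tropoelastin and integrins and is needed for elastic fibre assembly in mice, was at 158 FPKM in P1, 117 and 85.6 FPKM in P2 and P3, 64.7 and 23.2 FPKM in P4 and P5, and 16.3 FPKM in P6. It followed the order of *Eln* with a steeper slope. *Fbln2*, which binds fibrillin and basement membrane proteins, was at 429 FPKM in P1, 419.6 and 314 FPKM in P2 and P3, 319 and 227 FPKM in P4 and P5, and 353 FPKM in P6. Its highest value was only 1.89 times its lowest, the smallest range of the 10 genes. *Fbln1*, found in elastic fibres and basement membranes, was at 111 FPKM in P1, 236 and 129 FPKM in P2 and P3, 120.3 and 103 FPKM in P4 and P5, and 363 FPKM in P6. It was the single member with its highest level in P6, where it exceeded *Fbln2*, and with *Mfap4* it was past 2-fold lower in P1 than in P2.

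The microfibril-associated genes fell into separate patterns as well. *Mfap2* (MAGP-1), which binds fibrillin, was at 97.5 FPKM in P1, 94.0 and 67.1 FPKM in P2 and P3, 44.5 and 25.3 FPKM in P4 and P5, and 14.5 FPKM in P6, the same order as *Eln* and *Fbln5*. Its paralog *Mfap5* (MAGP-2) was at 444 FPKM in P1, 244 and 146 FPKM in P2 and P3, 231 and 78.1 FPKM in P4 and P5, and 144 FPKM in P6. *Mfap5* therefore shared with *Fbn1* the higher level in P4 than in P3, and its lowest value was in P5, not P6. *Mfap4*, a fibrinogen-domain protein that binds elastin and fibrillin, was at 11.8 FPKM in P1, 26.0 and 12.3 FPKM in P2 and P3, 1.69 and 1.95 FPKM in P4 and P5, and 0.927 FPKM in P6. It was the scarcest member in every population. P1 to P3 lay above P4 to P6, as they also did for *Eln*, *Fbln5*, *Mfap2* and *Lox*, and the share of all genes with this trait was not counted. The low values of *Mfap4* rested on 73 estimated reads in P4, 89 in P5 and 25 in P6, against 1185 in P2. *Mfap4* had the widest range, 28.0 times from P6 to P2. With 1 FPKM added to each value, P6 was at 0.0714 of P2, against 0.0357 without it, and the ratio of P2 over P4 was 10.03.

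Of the cross-linking enzymes, *Lox* was at 219 FPKM in P1, 274 and 218 FPKM in P2 and P3, 109 and 66.4 FPKM in P4 and P5, and 46.8 FPKM in P6. All 3 CD105+ populations were higher than P4, P5 and P6, and the counting interval of P1 over P3, 0.992 to 1.02, included 1. *Loxl1*, the lysyl oxidase that mice need to maintain elastic fibres, was at 344 FPKM in P1, 219.6 and 166 FPKM in P2 and P3, 213 and 119.5 FPKM in P4 and P5, and 125 FPKM in P6. It had the order of *Mfap5* and a narrow range, its highest value being 2.88 times its lowest.

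**Figure D1:**
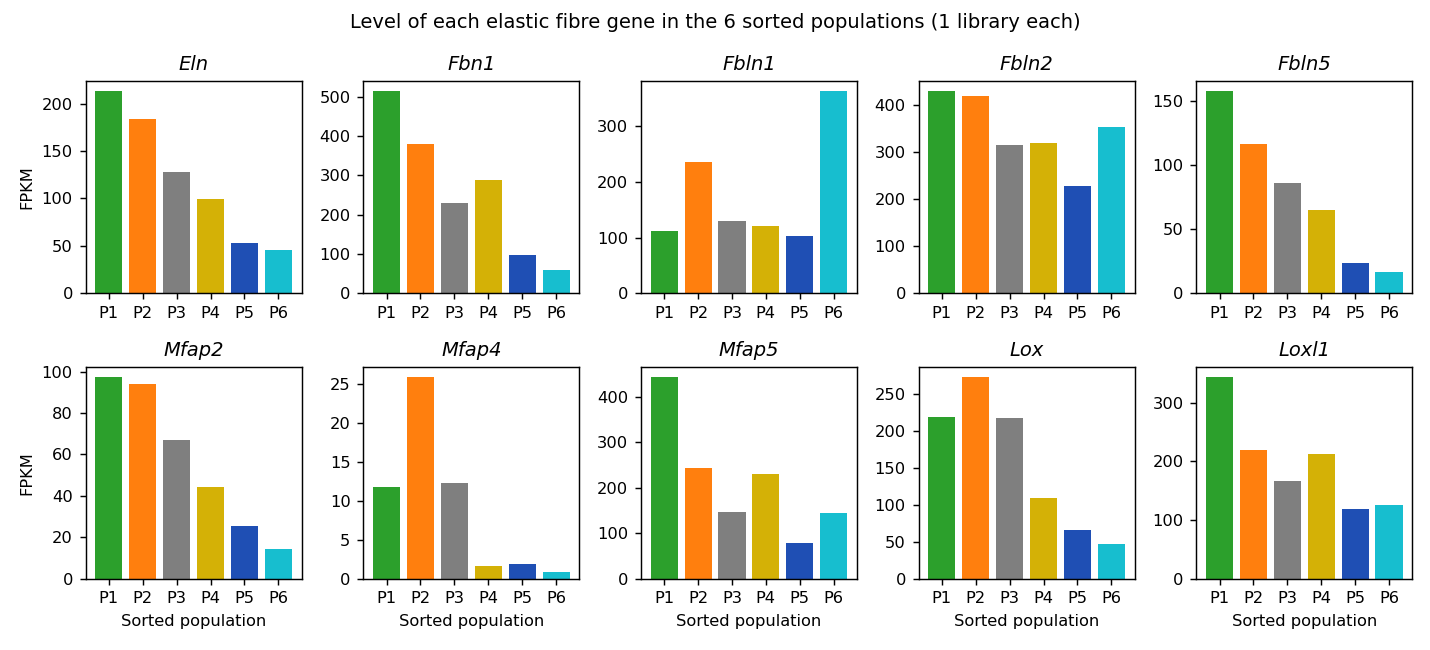
FPKM (vertical axis, linear from 0, a separate scale for each gene) of the 10 genes in P1 to P6, with 1 bar for each library and no error bar because there was 1 library for each population. *Eln*, *Fbln5* and *Mfap2* step down from P1 to P6, and *Fbln1* is highest in P6 at 363 FPKM. *Fbn1*, *Mfap5* and *Loxl1* are higher in P4 than in P3, and so is *Fbln2*, by a ratio of only 1.02.

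Of 50 pairs of neighbours in these orders, 5 had a counting interval that included 1. These were *Lox* in P1 and P3, *Mfap2* in P1 and P2 with a ratio of 1.04 (0.991 to 1.09), *Mfap4* in P3 and P1, *Mfap4* in P5 and P4, and *Mfap5* in P3 and P6. The 3 members in the full order from P1 to P6 were *Eln*, *Fbln5* and *Mfap2*, and 3.31% of all genes with at least 1 FPKM in any population were in that order. This pattern, and those of direction given for CD105 and ALDH, were chosen after the values were seen. On the scale of log2(FPKM + 0.1), the root mean square spread over the 6 populations was 0.31 for *Fbln2*, 0.52 for *Loxl1*, 0.67 for *Fbln1* and between 0.78 and 1.73 for the other members, against a median of 0.21 over 9790 genes. The 10 genes together summed to 2542 FPKM in P1, 2194 and 1494 FPKM in P2 and P3, 1489 and 794 FPKM in P4 and P5, and 1168 FPKM in P6. In P1 this was 0.623% of all FPKM and in P5 0.201%.

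The first question the gates allow is how the genes differed with CD105 at a matched ALDH level. All 10 were higher in CD105+ than in CD105- cells at both levels, a direction that 30.3% of all genes shared. At intermediate activity (P2 against P4), 3 members were past 2-fold, all higher in P2, where 13.0% of all genes were past it in either direction. After division by *Gapdh* the count was 6, with 1954 of 12241 genes past the fold. In the values as deposited, the 3 were *Mfap4* with a ratio of 15.4 (12.2 to 19.8), *Lox* with 2.51 (2.47 to 2.54) and *Mfap2* with 2.11. *Mfap5* and *Loxl1* were almost level, with ratios of 1.05 (1.02 to 1.09) and 1.03 (1.02 to 1.05). The median ratio was 1.83 over the members and 0.945 over all genes.

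At low activity (P3 against P5) 6 members were past 2-fold, again all higher in the CD105+ population, with 14.0% of all genes past it in either direction. After division by *Gapdh* it was 9, and 17.7% of all genes. In the values as deposited, *Mfap4* had a ratio of 6.32 (5.04 to 7.99), *Fbln5* of 3.70 (3.55 to 3.85) and *Lox* of 3.29 (3.23 to 3.34). *Mfap2* followed at 2.65, *Eln* at 2.40 and *Fbn1* at 2.35. The remaining 4 were *Mfap5* at 1.87, *Loxl1* at 1.39, *Fbln2* at 1.38 and *Fbln1* at 1.25. *Fbln1* was thus nearer to level at low than at intermediate activity, where its ratio was 1.96, while *Mfap5* was the reverse. The median ratio over the members was 2.38, and over all genes it was 0.938.

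Markers of other cell types moved with the same comparison. The 7 mesothelial markers summed to 95.1 FPKM in P2 and 917 in P4, and to 147 in P3 and 742 in P5. Of the 7, 6 were past 2-fold and lower in P2 than in P4, and 5 in P3 than in P5, with none at 0 in any library. *Msln* (mesothelin) was at 0.127 to 0.550 FPKM in P1 to P3, 6.86 in P4 and 2.31 in P5. The 6 pancreatic acinar genes examined summed to 187 FPKM in P2, 1013 in P4, 19.7 in P3 and 124 in P5, and none was at 0. The 6 immune markers went the other way, summing to 26.7 FPKM in P2 and 13.0 in P4, and to 24.8 in P3 and 8.93 in P5, most of it *Lyz2* (lysozyme). *Cd3e* was at 0 in P1, P4 and P5. Of the 9 mural markers, *Myh11* (smooth muscle myosin) was lower in the CD105+ cells, with ratios of 0.111 and 0.382, and *Notch3* was higher, with ratios of 3.35 and 5.72 for P2 over P4 and P3 over P5. The part of RNA from these cell types in the lower levels of elastic fibre genes in P4 and P5 was not tested. Of the fibroblast genes, *Dcn* was at ratios of 1.12 and 1.06 and *Pdgfra* at 1.29 and 1.31 for P2 over P4 and P3 over P5, respectively. *Col1a1*, the collagen I chain, had ratios of 1.80 and 1.49, and *Col1a2* of 1.497 and 1.295. *Pdpn* went the other way and was lower in the CD105+ cells, with ratios of 0.705 and 0.769 in the same order.

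The second question is how the genes differed with ALDH activity at a matched CD105 gate. Within CD105- cells (P4 against P5), 3 members were past 2-fold and higher at intermediate activity, and 5.74% of all genes were past it in either direction. *Mfap5* had a ratio of 2.96 (2.83 to 3.10), *Fbn1* of 2.96 (2.93 to 2.99) and *Fbln5* of 2.80 (2.68 to 2.91). *Eln*, *Loxl1*, *Mfap2* and *Lox* had ratios of 1.86, 1.78, 1.76 and 1.64, and *Fbln2* and *Fbln1* of 1.41 and 1.17. *Mfap4* was the exception at 0.868 (0.626 to 1.19), an interval that included 1. The median ratio was 1.77 over the members and 0.975 over all genes.

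Within CD105+ cells the differences between intermediate and low activity (P2 against P3) were smaller, except for *Fbln1* and *Mfap4*. Only *Mfap4* was past 2-fold, with a ratio of 2.11 (1.91 to 2.34), where 3.91% of all genes were. The other 9 had ratios between 1.25 (*Lox*) and 1.83 (*Fbln1*), all above 1, and the medians were 1.42 over the members and 0.979 over all genes. In all, 9 members, all but *Mfap4*, were higher at intermediate than at low activity in both gates, as were 29.8% of all genes. The acinar genes moved with this comparison too, and all 6 were higher at intermediate activity in both gates. The mesothelial markers were lower in P2 than in P3 and higher in P4 than in P5 in their sum, at 95.1 against 147 and 917 against 742 FPKM. Of the fibroblast markers, *Pdgfra* was close to level, with ratios of 1.01 and 1.02 for P2 over P3 and P4 over P5. The others were also higher at intermediate activity. In the same order, *Col1a1* had ratios of 1.63 and 1.34, *Col1a2* of 1.41 and 1.22, *Dcn* of 1.14 and 1.08, and *Pdpn* of 1.07 and 1.17. The 9 mural markers, of pericytes and smooth muscle, summed to 150.1 FPKM in P2 and 255 in P3, and to 186 in P4 and 301 in P5. Most of each sum was *Des* (desmin), at 130 and 198 FPKM in P2 and P3, and 117 and 191 in P4 and P5. The paper also stained desmin in the network of fibroblastic reticular cells of the omentum. *Cnn1* (calponin) was at 0 in P2 and P4. The part of acinar, mesothelial and mural RNA in these ratios was not tested.

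P1, the population with the highest ALDH activity, was compared first with P2, which shares its other gates. *Fbln1* and *Mfap4* were past 2-fold and lower in P1, with ratios of 0.471 (0.461 to 0.481) and 0.455 (0.408 to 0.507), and no member was past it in the other direction. Over all genes 5.55% were past 2-fold, and more of them were lower (531) than higher (124) in P1. *Mfap5* at 1.82 (1.77 to 1.87) and *Loxl1* at 1.57 (1.55 to 1.59) had the largest ratios, followed by *Fbn1* and *Fbln5*, both at 1.35, and *Eln* at 1.16. *Fbln2* and *Mfap2* were near level at 1.02 and 1.04, and *Lox* was lower in P1 at 0.801 (0.792 to 0.810). All 6 acinar genes were past 2-fold lower in P1, summing to 3.61 FPKM against 187 in P2. So were 3 of the mural markers. All 9 mural markers summed to 66.5 against 150.1 FPKM, of which *Des* made 57.2 and 130. The mesothelial markers summed to 72.6 and 95.1 FPKM, of which *Wt1* made 50.3 and 79.2. They did not move together. *Wt1*, *Msln* and *Krt18* were lower in P1, with ratios of 0.635, 0.231 and 0.578. *Upk3b*, *Lrrn4*, *Upk1b* and *Krt19* were higher in P1, with ratios of 1.64, 1.52, 1.41 and 1.19. The part of acinar, mural and mesothelial RNA in the ratios of P1 over P2 was not tested. No member was past 2-fold in one direction from each of the other populations in P1, and 1.78% of all genes were. The members highest in P1 were *Eln*, *Fbn1*, *Fbln2*, *Fbln5*, *Mfap2*, *Mfap5* and *Loxl1*, and the share of all genes highest in P1 was not counted. For *Mfap2* the interval of P1 over P2, 0.991 to 1.09, included 1. *Fbln2* in P1 over the highest other was 0.998 with a common sum of FPKM and 0.947 with quantile normalization.

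**Figure D2:**
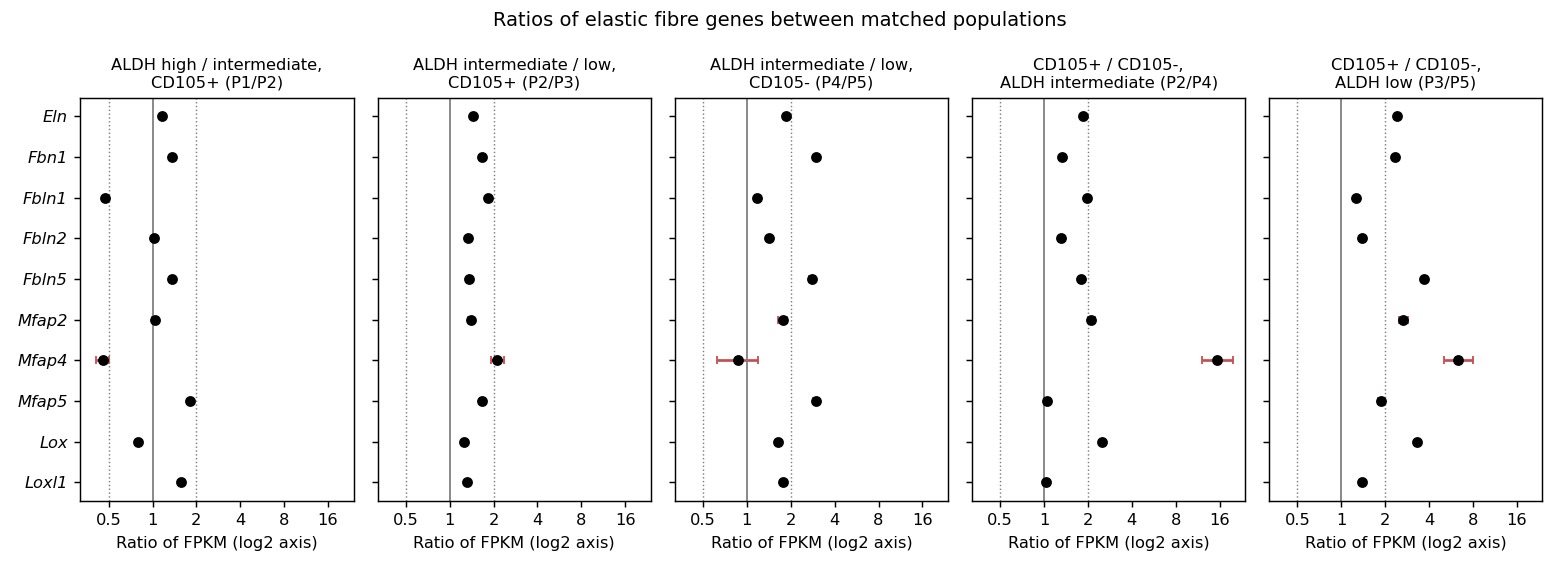
Ratio of FPKM (horizontal log2 axis) of each gene in the 5 comparisons of populations that differ in 1 gate. Points are ratios, red bars are 95% exact intervals for counting error (mostly hidden by the points), the solid line is 1 and dotted lines are 0.5 and 2. *Mfap4* lies at 15.4 for P2 over P4, and P1 over P2 has *Fbln1* and *Mfap4* below 0.5.

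P6 differed from the other populations in its gate for CD140a and in its levels of cell type markers. It lay below P1 in 9 of the 10 genes, as in 36.4% of all genes, with ratios of P1 over P6 from 1.22 (*Fbln2*) to 12.8 (*Mfap4*) among them, and a median ratio of 4.69 over the members against 0.863 over all genes. *Fbln1* was the reverse, with a ratio of 0.306. Against P5, 6 members were lower in P6, a share near the 49.2% of all genes that were, while *Fbln1*, *Fbln2* and *Mfap5* were 3.53, 1.56 and 1.84 times higher and *Loxl1* 1.04 times. No member was past 2-fold in one direction from each of the other 5, where 9.88% of all genes were. Nearest to it was *Mfap4*, lower in P6, with 1.82 (1.16 to 3.03) for P4 over P6 and 25 estimated reads in P6. On the higher side *Fbln1* was nearest, with 1.54 (1.51 to 1.56) over P2, the next highest. In P6 the mesothelial markers summed to 2841 FPKM and the acinar genes to 1507. The adipocyte genes summed to 152 FPKM and the endothelial genes to 49.0, of which *Kdr* made 46.9. Every other endothelial gene was at most 0.992 FPKM in P6. In P1 to P5 the adipocyte and endothelial sums were at most 4.93 and 3.47. The part of RNA from cells of these types in the P6 values was not tested.

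**Figure D3:**
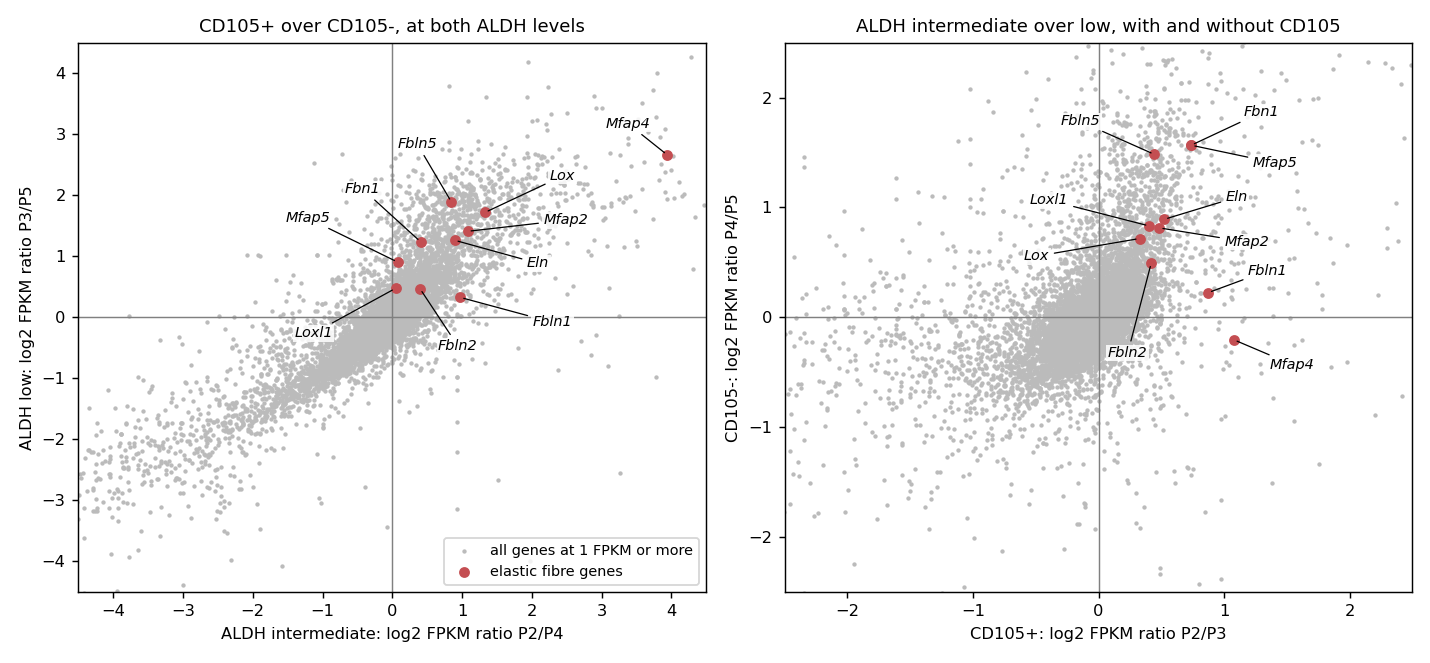
Log2 ratios of FPKM for the elastic fibre genes (red, named) and all genes with at least 1 FPKM (grey), cut at the axis limits. Left, CD105+ over CD105- at intermediate (horizontal) and low ALDH activity (vertical), where all 10 genes lie in the upper right corner, above 0 on both axes. Right, intermediate over low ALDH activity in CD105+ (horizontal) and CD105- cells (vertical), where *Mfap4* alone lies below 0 on the vertical axis.

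The balance between members within a library is not changed when a library is multiplied by a single factor, though quantile normalization can change it. *Lox* over *Loxl1* was 0.638 in P1, 1.25 and 1.32 in P2 and P3, 0.513 and 0.555 in P4 and P5, and 0.375 in P6, so *Lox* exceeded *Loxl1* only in P2 and P3. The MAGP pair *Mfap5* over *Mfap2* was 4.55 in P1, 2.60 and 2.18 in P2 and P3, 5.20 and 3.09 in P4 and P5, and 9.88 in P6. Both pairs therefore split P1 from the other CD105+ populations. *Fbln1* over *Fbln5* was 0.706 in P1, 2.03 and 1.51 in P2 and P3, 1.86 and 4.45 in P4 and P5, and 22.3 in P6, and P1 was the single population with more *Fbln5* than *Fbln1*. The ratio of core to scaffold, *Eln* over *Fbn1*, was narrower, at 0.415 in P1, 0.483 and 0.560 in P2 and P3, 0.345 and 0.550 in P4 and P5, and 0.758 in P6. Within each CD105 gate it was lower at intermediate than at low ALDH activity. *Mfap2* over *Eln* stayed between 0.449 and 0.525 in P1 to P5 and was 0.319 in P6.

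**Figure D4:**
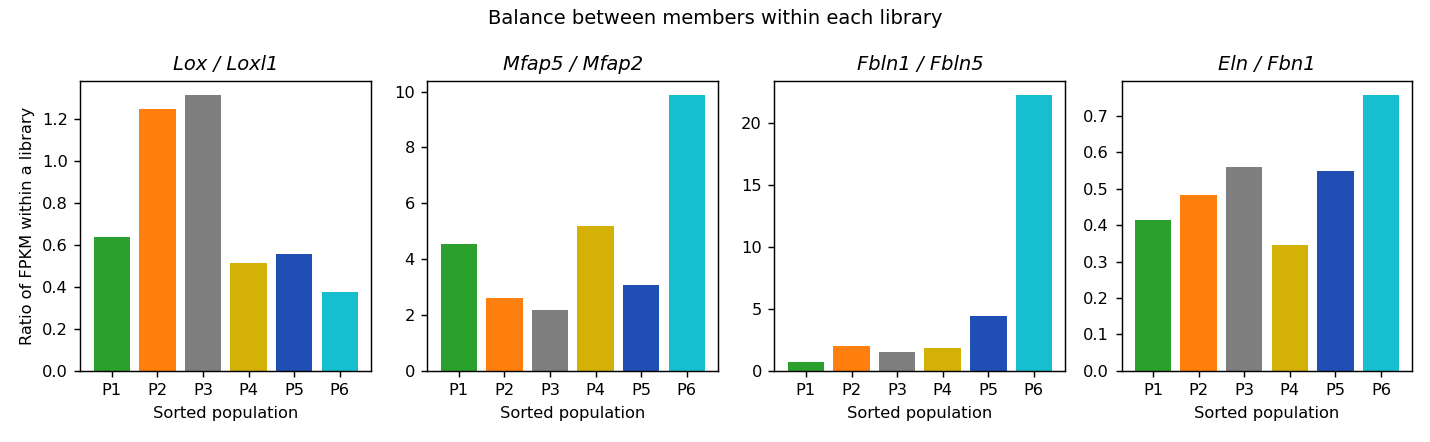
Ratio of the FPKM of 2 genes within the same library (vertical axis, linear from 0, a separate scale for each pair) in P1 to P6, with 1 bar for each library. *Lox* over *Loxl1* is above 1 only in P2 and P3, and *Fbln1* over *Fbln5* runs from 0.706 in P1 to 22.3 in P6.

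A list of 38 other genes of elastic fibre assembly and turnover gave the surroundings of the 10, and 37 of them were found, 33 with at least 1 FPKM in any population. Of the 33, 22 were higher in CD105+ cells at both ALDH levels, where 30.3% of all genes were. At intermediate activity 20 were higher than at low activity in both gates, where 29.8% of all genes were. P3 against P5 had the most past 2-fold, 9 higher and 1 lower of 30. It also had the largest share of all genes past it in either direction, 14.0%. P2 against P4 had 5 higher and 1 lower of 30 (13.0% of all genes). P4 against P5 had 5 higher and 1 lower of 30 (5.74% of all genes). P2 against P3 had 1 higher and 2 lower of 29 (3.91%), and P1 against P2 had 1 higher and 4 lower of 29 (5.55%).

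Among the latent TGF-β binding proteins, which sit on microfibrils, *Ltbp1* was at 138 FPKM in P1, 101 and 92.3 FPKM in P2 and P3, 67.1 and 22.5 FPKM in P4 and P5, and 1.16 FPKM in P6. It thus had the same order as *Eln* but dropped further in P6. *Ltbp4*, which works with fibulin-5 in elastin assembly, was at 404, 488, 308, 290.4, 196 and 343 FPKM in P1 to P6, and *Ltbp2* went the other way with ALDH activity, at 3.17, 9.21 and 23.9 FPKM in P1, P2 and P3. The fibulin-4 gene *Efemp2*, needed for elastin cross-linking, was at 152 FPKM in P1 and 61.7 in P6, and its relative *Efemp1* (fibulin-3) was at 532 FPKM in P1, 213 in P5 and 553 in P6. *Fbln7* was higher in P2 than in P4 at a ratio of 4.67.

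Of the other lysyl oxidases, *Loxl2* was at 139 FPKM in P1, 96.1 and 72.6 FPKM in P2 and P3, 83.9 and 49.7 FPKM in P4 and P5, and 65.0 FPKM in P6, the order of *Loxl1* and *Mfap5*. *Bmp1*, whose product activates lysyl oxidases, varied less, from 92.0 FPKM in P6 to 186 in P1. *Atp7a*, the transporter that loads them with copper, was higher in the CD105- cells, at 20.9 FPKM in P5 and with a ratio of 0.534 for P2 over P4. The elastin-binding *Emilin1* was at 77.3 to 126 FPKM in P1 to P5 and 20.9 in P6, and *Emilin2* was highest in P1 at 195 and in P4 at 186. Fibrillin-2 (*Fbn2*), chiefly of embryonic microfibrils, was at 1.41 FPKM in P6 and below 1 elsewhere.

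Among proteases that cut elastin or gelatin, a pair had the stepwise order of *Eln*, *Fbln5* and *Mfap2*. *Mmp2* was at 253 FPKM in P1, 212 and 152 FPKM in P2 and P3, 103 and 37.5 FPKM in P4 and P5, and 6.52 FPKM in P6, and *Ctsk* (cathepsin K) at 96.6, 77.6, 61.1, 40.6, 16.8 and 2.72. *Ctsl* did not share the order and lay between 549 and 614 FPKM in P1 to P5, and the elastase *Mmp12* was listed at 0 in all 6 libraries. *Adamtsl3*, of the family of microfibril-binding ADAMTS-like proteins, had a ratio of 4.22 for P4 over P5, and its relative *Thsd4* (ADAMTSL6) was at 25.1 FPKM in P6 and at most 3.35 elsewhere. The elastin receptor genes *Glb1*, *Neu1* and *Ctsa* had no ratio past 2-fold in any of the 5 comparisons.

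Genes with the most similar pattern were sought among 9790 genes with at least 5 FPKM in any population, by the root mean square difference of centred log2(FPKM + 0.1) over the 6 populations. The nearest to *Eln* were *Timp1*, an inhibitor of metalloproteinases, at 0.06, and *Itgb5* and *Tnxb* (tenascin-X) at 0.09. *Timp1* was at 26.7 FPKM in P1, 24.6 and 17.2 FPKM in P2 and P3, 13.8 and 7.43 FPKM in P4 and P5, and 5.96 FPKM in P6. *Htra3* was nearest to *Mfap2* at 0.08, *Aoc3* to *Fbln5* at 0.09 and *Tmem100* to *Fbn1* at 0.11. *Ptprm* was nearest to *Lox* at 0.10, *Vat1* to *Loxl1* at 0.07, *Lrrn4cl* to *Mfap5* at 0.15 and *Cad* to *Fbln2* at 0.07. *Fbln1* and *Mfap4* had no close match, the nearest being *Fzd2* at 0.19 and *D630003M21Rik* at 0.34. Among the members themselves, the most alike were *Lox* and *Mfap2* at 0.20, *Eln* and *Mfap2* at 0.23 and *Fbn1* and *Fbln5* at 0.24. *Fbln1* was no nearer than 0.61 to another member and *Mfap4* no nearer than 0.87.

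Some members share sequence with genes on the other strand, and the library kit does not mark strand. *Fbn1* overlaps *Gm9913* over 2442 bases, *Eln* overlaps *Gm30003* over 267, *Mfap4* overlaps *Mapk7* over 89 and *Lox* overlaps a noncoding RNA over 30. *Mapk7* was at 8.81 to 15.3 FPKM, above *Mfap4* in P4, P5 and P6, and reads in the shared bases cannot be assigned to either gene.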

How the data were processed

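RNA was sequenced from 6 sorted omental populations, 1 library each, as single-end reads of 76 bases from libraries made with the NEBNext Ultra kit. For each library the authors deposited FPKM values per gene symbol. The submitters' processing notes name TopHat2 2.0.7, Cufflinks 2.1.1 and mm10, and the annotation and filters are not given in the sources used here. Each table held 23847 rows, and 495 rows that repeated a symbol were summed with the first. FPKM were compared as deposited, without further scaling. The sums of FPKM per library were 384939 to 407807.

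Depth was estimated from low FPKM values of genes for which GENCODE M21 lists 1 transcript, of 800 nt or more, taking fragments of 200 nt. Between 53.05% and 58.53% of these values lay within 0.05 of a whole number of reads, so no count test was run. Reads of the 10 genes were estimated from the shortest coding transcript of at least 700 nt, and intervals are exact binomial (Clopper-Pearson) at 95%. The genes and lists were chosen with earlier results of these data known. Named genes were all 10 members, genes of the fixed lists at 5 FPKM or more, gate genes and, for each member, the 3 most similar genes, of which the text gives the nearest. *Mmp12*, *Fbn2*, *Gm9913*, *Gm30003* and *Mapk7* were named after their values or positions were seen. *Hmcn2* was not found. Alternatives covered the minimum FPKM, the fold, the pseudocount, the scaling and repeated symbols. Their use for the patterns of direction was added after the data were seen. The procedure was tested on simulated data. Computation used matplotlib 3.10.9, scipy 1.17.1, pandas 2.3.3 and numpy 2.4.6 in Python 3.11.15.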

Additional observations from a re-analysis of the deposited data

How the results depend on the processing

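No paired analysis was possible because there was 1 library for each population. With a fold of 1.5, the number of the 10 genes past it was 4 for P1 against P2 (11.5% of all genes), 4 for P2 against P3 (7.95%), 7 for P4 against P5 (11.6%), 6 for P2 against P4 (22.4%) and 7 for P3 against P5 (23.8%). Against each of the others it was 2 for P1 (*Mfap5* and *Loxl1*, with 4.41% of all genes) and 4 for P6 (*Fbln1* higher, *Fbn1*, *Mfap2* and *Mfap4* lower, with 16.5%). With a fold of 3 it was 0 for P1 against P2 (2.73% of all genes), 0 for P2 against P3 (2.15%), 0 for P4 against P5 (301 of 12022 genes), 1 for P2 against P4 (7.33%) and 3 for P3 against P5 (7.70%). After division by *Gapdh*, which was at 214 to 224 FPKM in P1 to P3 and 270.4 to 326 in P4 to P6, it was 6 for P2 against P4 (1954 of 12241 genes) and 9 for P3 against P5 (17.7%). For P2 against P4 it was 4 with a common sum of FPKM (12.9% of all genes) and with the median of ratios (13.0%). The gene added was *Fbln1*, with ratios of 2.01 and 2.08. After quantile normalization it was 1 (*Mfap4*, lower) for P6 against each of the others (9.63%). For the scalings, the cause was not tested. Of 70 ratios, 3 crossed 1 under some alternative, all of *Fbln2*: P1 over P2 was 0.998 with a common sum of FPKM and 0.981 with quantile normalization, P1 over the highest other was 0.947 and P6 over the highest other 1.04 with quantile normalization. The patterns of direction kept their counts of 10, 9 and 3 under the 4 scalings. The median of ratios gave size factors of 0.914 in P1 to 1.08 in P6, a shift of 0.13 to -0.11 on the log2 scale. Depth limited *Mfap4* most, and with 1 library for each population none of the ratios carries a biological error.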
